A study of Mus musculus with 27 samples.

Results

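Haematopoietic progenitor cells (HPC) of B6 mice carried, in the libraries titled H3K27me3, 53596 autosomal peaks at the fetal stage and 47556 in the adult. These 101152 peaks, of 901169 in the 8 peak lists of the series, are described here. They were sorted by interval overlap between the 2 ages. A peak was called shared when it overlapped a peak of the other age by 1 bp or more, and fetal-only or adult-only when it overlapped none. The rule gave 33114 fetal-only and 23299 adult-only peaks, while 20482 fetal peaks and 24257 adult peaks were shared. Fetal HPC came from embryonic day E16.5 (2 libraries) and adult HPC from mice 8 weeks old (3 libraries). The cells were sorted and then fixed, and chromatin was profiled by ChIPmentation, in which the Tn5 transposase tags antibody-bound chromatin. The series also held H3K27ac and H3K4me1 libraries of the same cells (3 of each mark at each age), H3K4me1 libraries of haematopoietic stem cells and 3 input libraries. No genetic change or treatment was named for any group, the sex of the mice was not given, and each list pooled the libraries of 1 age.

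The labels of the 5 libraries disagreed, with H3K27me3 in the titles and H3K27ac in the field for the mark. Between 0.02% and 0.64% of the age-only peaks overlapped an H3K27ac peak of HPC at either age, which goes against the mark field. The lists are therefore called the K27 lists here, with the titles' mark as their label. For the progenitor label 12 marker genes were looked at. None of the 12 held a K27 peak at either age, as did 76.7% of all coding genes. Of the 10 with a known start, 9 had a fetal H3K27ac peak within 1 kb and 10 an adult one. Over all genes with a known start these shares were 48.9% and 57.2%. The H3K27ac peaks come from other libraries, so these counts do not test the progenitor label of the K27 libraries.

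H3K27me3 is written by Polycomb repressive complex PRC2 through its Ezh1 or Ezh2 subunit, and it is bound by the Cbx subunits of complex PRC1. It marks silent developmental regulators, and it cannot sit on the same residue as H3K27ac, the mark of active promoters and enhancers. In blood formation, fetal progenitors use a programme that includes the RNA-binding proteins Lin28b and Igf2bp1 to Igf2bp3.

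The promoters of 5 genes show how the peaks met gene starts at the 2 ages. They were chosen after their values were seen. Each RefSeq window (GRCm38.p6) runs from 250 bases before to 50 after an annotated start, in the gene's direction, and capitals mark every CG dinucleotide, the site of DNA methylation in mammals. Cdkn2c and Hoxa2 were covered over all 300 bases by fetal peaks and by no adult peak, Hoxd4 over all 300 bases at both ages, and Tcf21 over 164 bases in the adult and 0 in the fetus. The Lin28b window was covered at neither age, but an adult peak lay 137 bp from it and the nearest fetal peak 16647 bp away.
Cdkn2c, chr4:109665323-109665622, - strand: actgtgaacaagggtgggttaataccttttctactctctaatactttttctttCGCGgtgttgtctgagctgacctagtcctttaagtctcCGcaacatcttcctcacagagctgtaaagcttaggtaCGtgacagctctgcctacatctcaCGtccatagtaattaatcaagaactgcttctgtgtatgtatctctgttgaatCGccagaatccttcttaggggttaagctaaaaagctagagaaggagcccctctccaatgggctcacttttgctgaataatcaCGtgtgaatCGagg
Hoxa2, chr6:52164782-52165081, - strand: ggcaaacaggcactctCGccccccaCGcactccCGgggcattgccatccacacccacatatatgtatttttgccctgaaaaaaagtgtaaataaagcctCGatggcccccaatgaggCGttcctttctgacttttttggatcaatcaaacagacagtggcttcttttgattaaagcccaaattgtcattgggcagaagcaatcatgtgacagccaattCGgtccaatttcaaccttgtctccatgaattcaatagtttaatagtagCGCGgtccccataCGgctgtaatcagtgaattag
Hoxd4, chr2:74721728-74722027, + strand: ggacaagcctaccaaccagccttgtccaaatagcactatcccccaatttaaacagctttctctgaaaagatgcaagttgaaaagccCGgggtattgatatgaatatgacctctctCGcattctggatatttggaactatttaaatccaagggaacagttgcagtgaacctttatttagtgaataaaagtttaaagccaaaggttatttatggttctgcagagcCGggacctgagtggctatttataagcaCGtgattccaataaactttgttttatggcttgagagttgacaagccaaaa
Tcf21, chr10:22820094-22820393, - strand: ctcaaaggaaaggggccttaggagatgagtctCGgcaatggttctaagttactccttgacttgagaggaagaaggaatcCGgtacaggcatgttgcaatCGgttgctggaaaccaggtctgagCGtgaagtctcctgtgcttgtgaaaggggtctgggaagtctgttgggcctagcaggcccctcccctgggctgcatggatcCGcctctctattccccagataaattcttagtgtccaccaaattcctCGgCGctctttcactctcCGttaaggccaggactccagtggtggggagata
Lin28b, chr10:45470152-45470451, - strand: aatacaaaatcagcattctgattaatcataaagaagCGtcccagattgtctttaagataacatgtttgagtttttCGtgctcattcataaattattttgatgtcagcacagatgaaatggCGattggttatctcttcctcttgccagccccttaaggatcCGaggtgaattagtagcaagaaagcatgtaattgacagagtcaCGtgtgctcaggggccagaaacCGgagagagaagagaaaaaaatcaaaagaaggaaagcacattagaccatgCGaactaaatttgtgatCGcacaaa
These windows held 4 to 9 CG dinucleotides, below the median of 14 over all 20085 autosomal coding windows of the table. Of all windows, 57.9% held 10 or more. Among the 308 windows covered in the fetus only (1.53% of all) 40.3% held 10 or more, against 24.1% of the 79 covered in the adult only (0.393%) and 23.0% of the 122 covered at both ages (0.607%). The median window held 8 CG in the fetal-only class, 4 in the adult-only class and 5 in the class covered at both ages. Cdkn2c, which encodes the cell cycle inhibitor p18, has a second annotated start whose window holds 33 CG, and that window lay 894 bp outside the fetal peak.

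On autosomes the fetal K27 list held more and broader peaks than the adult list. With all chromosomes the lists were of near equal length, with 54339 fetal and 54293 adult peaks. Fetal-only peaks made up 61.8% of the fetal list (95% Wilson interval 61.4% to 62.2%) and adult-only peaks 49.0% of the adult list (48.5% to 49.4%). The difference between these shares was 12.8 percentage points (Newcombe interval 12.2 to 13.4). Fetal peaks covered 40.9 Mb of autosomes and adult peaks 23.8 Mb, a ratio of 1.72, and 12.5 Mb was covered at both ages. That overlap was 30.6% of the fetal and 52.6% of the adult covered length. The median peak was 506 bp wide in the fetal-only class and 786 bp among shared fetal peaks, and 343 bp and 512 bp in the same classes of the adult list. Intervals cover counting error only, and neighbouring peaks are not independent. The libraries of an age were pooled, so no spread between replicates can be given and no test across samples was possible. Read depth is unknown, and the lack of a called peak is not the lack of the mark. The part of depth in these shares was not tested. With list length made equal, at the strongest 20000 peaks of each list, the shares were 59.6% and 53.0%, a difference of 6.64 points.

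Age-only peaks were the weaker ones of each list. The fetal list was ranked by the authors' −log10 p and cut into 10 equal parts. Of the strongest part 18.8% of peaks were fetal-only, against 81.0% of the weakest. The adult-only share ran from 16.2% to 65.6% over the parts of its own list. The authors' fold over background had a median of 2.71 in fetal-only and 3.12 in shared fetal peaks, and of 2.83 in adult-only and 3.09 in shared adult peaks. A q of 0.05 or less was reached by 75.2% of fetal-only peaks but by 43.9% of adult-only peaks. At −log10 q of 5 or more, 1604 fetal-only and 32 adult-only peaks were left. Both thresholds depend on each list's own depth and length, so these counts describe the calls and do not compare the mark between ages.

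**Figure D1:**
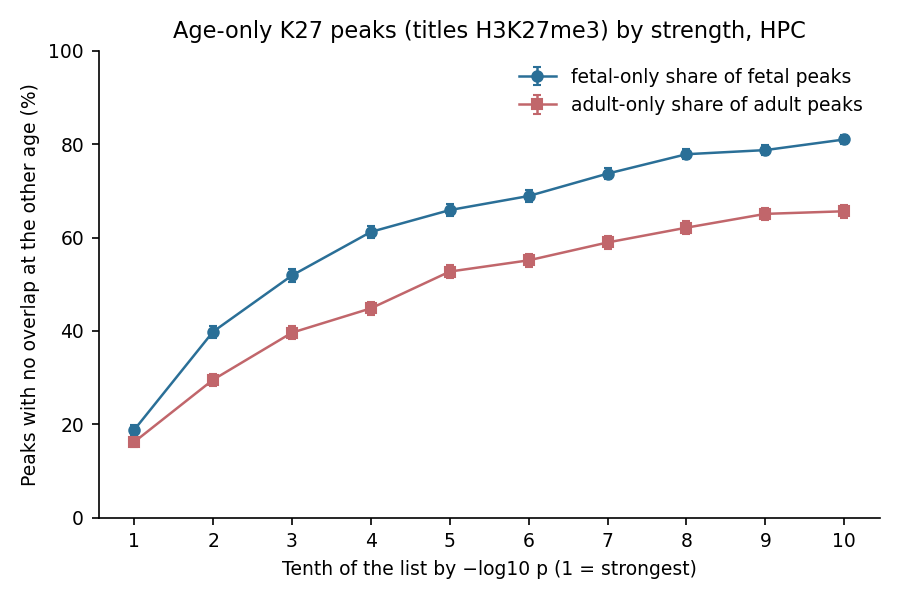
Share of peaks with no overlap at the other age (y axis, percent) for the fetal (circles) and adult (squares) autosomal list, each ranked by −log10 p and cut into 10 equal parts from strongest to weakest (x axis); bars are 95% Wilson intervals. Both shares climb from below 20% in the strongest part to 81.0% (fetal) and 65.6% (adult) in the weakest part.

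Few peaks sat at the edge of the overlap rule. Shared peaks that overlapped by only 1 to 50 bp numbered 267 in the fetal and 369 in the adult list, and age-only peaks within 50 bp of a peak of the other age numbered 270 and 335. The median fold was 2.66 on both sides of the edge in the fetal list, and 2.77 inside against 2.83 outside in the adult list. Adult-only peaks more often lay close to fetal ones than the reverse. Of adult-only peaks 56.2% were within 5 kb of a fetal peak, whereas 40.7% of fetal-only peaks were within 5 kb of an adult peak. At the far end, 41.4% of fetal-only peaks but 16.8% of adult-only peaks lay over 20 kb from the other list.

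Genes were scored by peaks in the gene body with 1 kb on each side. Of 20665 autosomal coding genes, 1468 held fetal peaks only (7.10% of all genes, the background for the lists below), 382 adult peaks only (1.85%), 2964 peaks at both ages (14.3%) and 15851 none (76.7%). Summed over genes, fetal peaks covered 17080 kb and adult peaks 9903 kb, a ratio of 1.72. Counted within 1 kb of the annotated starts of 16457 genes, 861 had fetal peaks only (5.23%), 207 adult peaks only (1.26%) and 873 peaks at both ages (5.3%). The longer length in the gene windows was fetal in 3682 genes and adult in 1127. A gene list whose ratio is near 1.72 therefore does not stand apart from all genes, and for single genes the fetal length was also divided by the covered-length ratio of the lists.

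**Figure D2:**
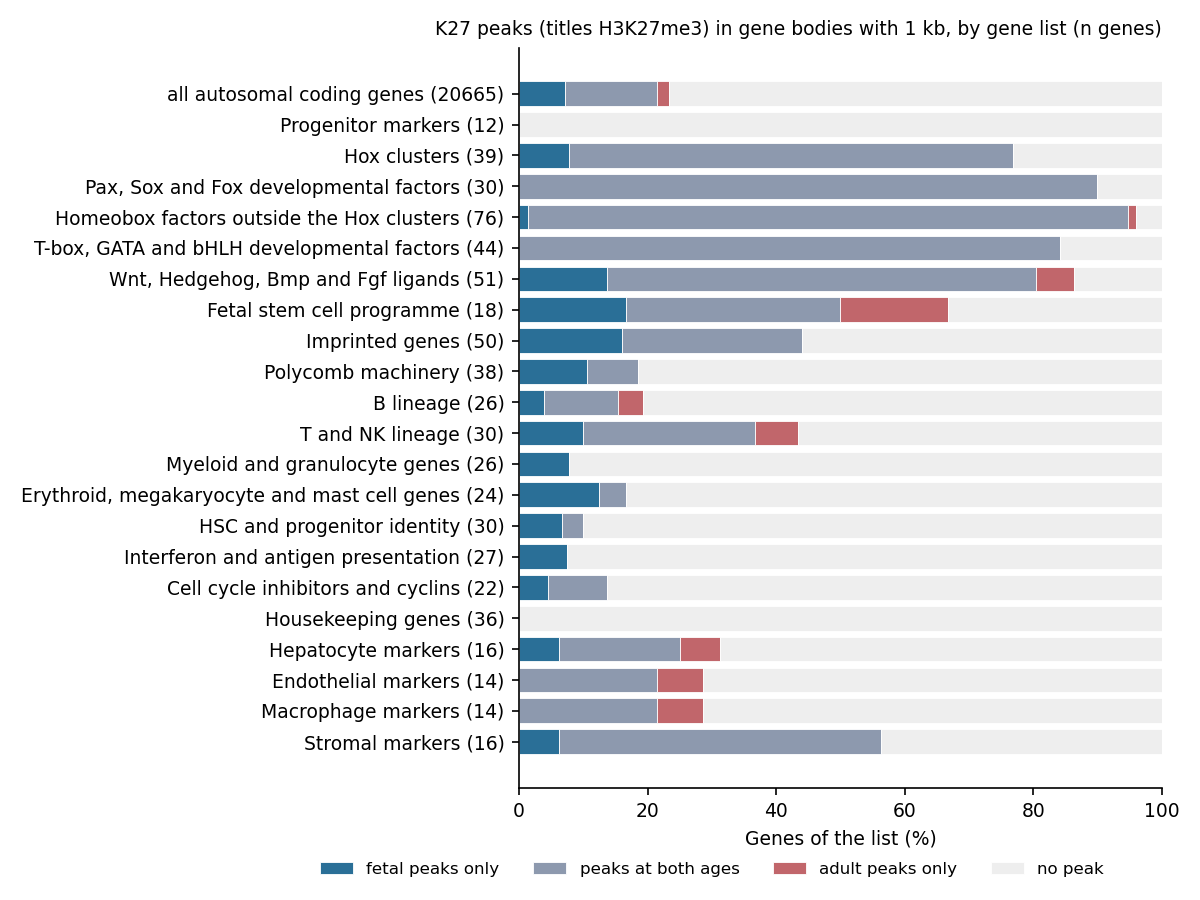
Share of genes (x axis, percent) with K27 peaks in the fetal list only, at both ages, in the adult list only or in neither, for each gene list (number of genes in brackets) and for all 20665 autosomal coding genes. Developmental factors are mostly marked at both ages. The fetal stem cell programme holds 3 fetal-only and 3 adult-only genes of 18 (16.7% each). Over all genes these shares are 7.10% and 1.85%.

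Developmental transcription factors, the classical Polycomb targets, were marked at both ages. Peaks at both ages were found in 71 of 76 homeobox factors outside the Hox clusters, 27 of 30 Pax, Sox and Fox factors, 37 of 44 T-box, GATA and bHLH factors and 27 of 39 Hox genes, against 14.3% of all genes. The age difference was in length. Fetal over adult covered length was 1.67 for the homeobox, 1.86 for the Pax, Sox and Fox, 1.49 for the T-box, GATA and bHLH and 1.73 for the Hox list, close to the 1.72 of all genes. Pax3, a neural crest and muscle factor, had 54.9 kb in 46 fetal peaks and 22.5 kb in 40 adult peaks. Pax6, the eye and forebrain factor, had 16.7 kb and 6.97 kb. Alx1, a craniofacial factor, had 11.6 kb in the fetus and 3.70 kb in the adult. Six2, a kidney progenitor factor, had 12.4 kb and 5.22 kb. Tbx15, a limb and skeletal factor, had 29.4 kb and 15.8 kb. These 5 factors were more covered in the fetus, as they were after scaling. Twist2, a mesenchymal bHLH factor, went the other way with 5.57 kb fetal and 8.65 kb adult, though its strongest peaks, at −log10 q of 5 or more, covered more in the fetal list.

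The 4 Hox clusters fell into 2 patterns. The Hoxc cluster was covered over 65.6% of its length in the fetus and 43.9% in the adult, and the Hoxd cluster over 56.3% and 35.4%, with all 18 genes of both clusters marked at both ages. The Hoxa cluster was covered over 19.7% and 9.29%, and the Hoxb cluster over 20.3% and 13.3%. All 9 Hox genes without a peak were in these clusters: Hoxa3, Hoxa4, Hoxa5, Hoxa6, Hoxa7 and Hoxa9, and Hoxb3, Hoxb4 and Hoxb5. Several of these, such as Hoxa9 and Hoxb4, are known to be active in blood stem and progenitor cells. Hoxa2, whose promoter is printed above, was the fetal-only gene of its cluster with 1.22 kb in 2 peaks. Hoxd3 had the longest coverage of the Hox genes, in a window that also spans Hoxd4, with 20.3 kb in the fetus and 11.2 kb in the adult.

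Signalling ligands were also mostly marked at both ages, with more exceptions. Of 51 Wnt, Hedgehog, Bmp and Fgf ligands, 34 were marked at both ages (66.7%), 7 in the fetus only (13.7%) and 3 in the adult only (5.88%). Over all genes these shares were 14.3%, 7.10% and 1.85%. Fetal over adult covered length of the list was 1.56, beside 1.72 for all genes. The fetal-only genes were Wnt5b, Wnt6, Wnt8a, Wnt9a, Wnt10b, Bmp4 and Fgf4, and the adult-only genes Fgf18, Bmp8a and Dkk1, a Wnt antagonist. Wnt8b had 6.40 kb in 10 fetal peaks and 1.24 kb in 3 adult peaks. Bmp5 had 0.711 kb in 2 fetal peaks and 6.24 kb in 15 adult peaks, of which 14 were adult-only and none was left at −log10 q of 5 or more. Bmp6, which signals iron load to hepcidin in liver, had 7.77 kb in 7 fetal and 12.5 kb in 26 adult peaks, but among the strongest 20000 peaks of each list more of it was covered in the fetus.

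The 18 genes of the fetal stem cell programme were covered over 31.1 kb in the fetus and 60.2 kb in the adult, a ratio of 0.516 beside 1.72 for all genes, and held 22 fetal-only and 99 adult-only peaks. In all, 5 genes were more covered in the adult and 7 in the fetus. Ncam1, a cell adhesion gene, carried most of the length with 12.4 kb in 17 fetal peaks and 39.8 kb in 84 adult peaks, though at −log10 q of 5 or more its fetal peaks covered more. Without Ncam1 the list had 18.7 kb in the fetus and 20.4 kb in the adult, a ratio of 0.917.

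Lin28b, the RNA-binding protein that blocks maturation of the let-7 microRNAs, lies at chr10:45376617-45486314. It was touched by 1 fetal peak over 216 bp and by 13 adult peaks over 7.25 kb, all 13 adult-only. The start printed above lies inside this interval. Counted from the outer 5′ end of the gene, the adult peaks lay in its first 20 kb, next to a block beyond that end that was called at both ages. Their fold reached 3.53 and their −log10 q 2.16, so none was left at −log10 q of 5 or more, and within 1 kb of the gene's ends the fetal list covered more, by 216 bp. In the same gene the fetal H3K27ac list had 6 peaks and the adult list 0, and H3K4me1 had 17 fetal and 4 adult peaks.

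The 3 Igf2bp genes, which encode mRNA-binding proteins, were marked in the adult list only. Igf2bp1 (chr11:95957163-96005944) held 6 adult peaks over 2.73 kb, Igf2bp2 (chr16:22059009-22163299) 4 over 1.80 kb and Igf2bp3 (chr6:49085218-49215469) 2 over 0.898 kb. None of the 3 had a fetal peak. With 20 kb added on each side, 13, 5 and 5 adult-only peaks were found in turn, of which 8, 3 and 4 reached a q of 0.05, and a single fetal peak, near Igf2bp1. H3K27ac peaks in Igf2bp3 numbered 12 in the fetus and 5 in the adult, in Igf2bp1 1 and 0, and in Igf2bp2 8 at each age. Hmga2, a chromatin protein regulated by let-7, had no K27 peak at either age. Dlk1, Mest and Peg3, imprinted genes on the same list, had fetal peaks only, so the list was not of 1 direction. No peak of the 3 Igf2bp genes was left at −log10 q of 5 or more, and none of Igf2bp3 among the strongest 20000 of the list.

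**Figure D3:**
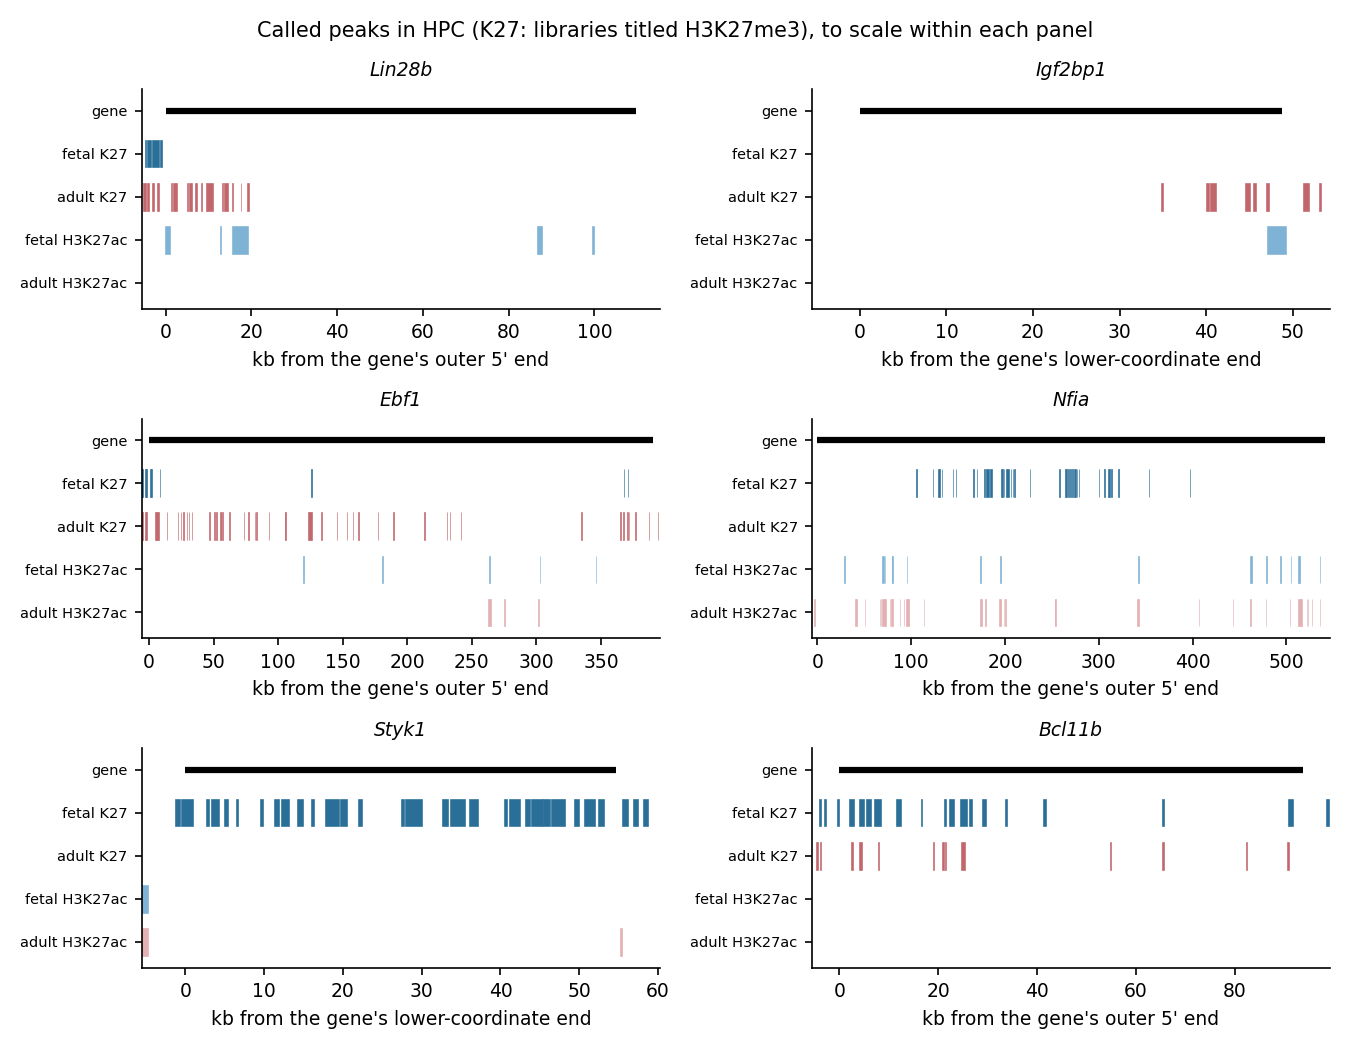
Called peaks along 6 genes (x axis, kb from the gene's outer 5′ end, or from its lower-coordinate end where the strand was not in the table): K27 peaks and H3K27ac peaks of fetal and adult HPC, with the gene body as a black bar. The first 20 kb of Lin28b holds the adult K27 peaks of the gene and 3 of its fetal H3K27ac peaks, while Nfia and Styk1 carry 38 and 29 fetal K27 peaks and no adult one.

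Genes covered longest in the fetus with no adult peak had longer coverage than the genes covered longest in the adult with no fetal peak. Both sets were picked by covered length, and the whole fetal list covered 1.72 times the length of the adult list. Nfia, a nuclear factor I transcription factor at chr4:97578066-98118876, held 38 fetal peaks over 32.9 kb, with a highest fold of 6.04, and 0 adult peaks. Its H3K27ac peaks numbered 16 in the fetus and 33 in the adult. Styk1, a receptor-like kinase, held 29 peaks over 26.5 kb and Nek10, a kinase of the NIMA family, 26 over 24.6 kb. Itpr2, a calcium channel of the endoplasmic reticulum, held 21 over 15.3 kb, with 5 fetal and 18 adult H3K27ac peaks. Apbb2, an adaptor protein, held 51 fetal peaks over 44.0 kb and 2 adult peaks over 0.911 kb.

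The gamma protocadherins, adhesion proteins that neurons express in combinations, were all marked in the fetus only. All 12 Pcdhga genes held fetal peaks and no adult peak, with 25 peaks over 18.2 kb in Pcdhga1. They share 1 locus and most of its peaks, so they count as 1 observation. The neighbouring Pcdha genes, also 12 members of 1 locus, were marked at both ages.

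Genes marked longest in the adult with no fetal peak had shorter coverage. Spata17, a sperm-associated gene, held 11 adult peaks over 3.78 kb and Fbxo15, an F-box gene of pluripotent cells, 10 over 3.48 kb. Elavl4, a neuronal RNA-binding protein, held 4 over 3.09 kb. Slc24a3, a sodium and calcium exchanger, held 6 over 2.66 kb and Plxna2, a semaphorin receptor, 6 over 2.31 kb. Zkscan2 and Hmgcll1 held 6 peaks each, over 2.53 kb and 2.45 kb. None of these 7 genes kept a peak at −log10 q of 5 or more, and Spata17 kept none among the strongest 20000 of the list. In Elavl4 and Plxna2 the fetal H3K27ac list had 2 and 3 peaks and the adult list 0.

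**Figure D4:**
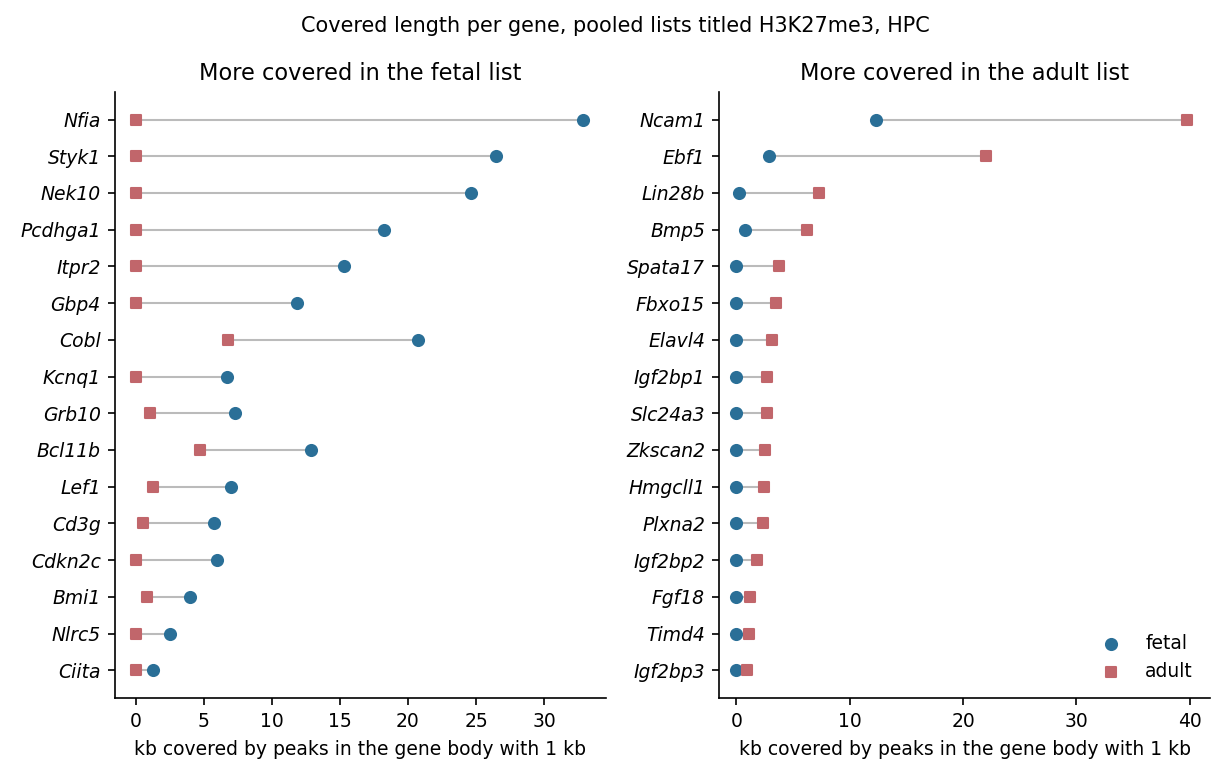
Length covered by K27 peaks (x axis, kb, gene body with 1 kb each side) in the fetal (circles) and adult (squares) pooled list for named genes that were more covered in the fetus (left) or in the adult (right); the x axes differ. Nfia spans 32.9 kb against 0 and Ncam1 12.4 kb against 39.8 kb.

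The T and NK list was covered over 45.3 kb in the fetus and 14.8 kb in the adult, a ratio of 3.07. Of its 30 genes 8 were marked at both ages (26.7%), 3 in the fetus only (10.0%) and 2 in the adult only (6.67%). Over all genes these shares were 14.3%, 7.10% and 1.85%. The longer length was fetal in 9 genes of the list and adult in 4. Bcl11b, the factor that commits thymocytes to the T lineage, had 12.9 kb in 16 fetal peaks and 4.71 kb in 11 adult peaks. Lef1, a Wnt-responsive factor of early T and B cells, had 6.99 kb and 1.27 kb. Cd3g, a subunit of the T cell receptor complex, had 5.79 kb and 0.551 kb. Ncr1 went the other way, with 0.336 kb in the fetus and 1.38 kb in the adult.

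The B lineage list had 25.8 kb fetal and 39.6 kb adult, a ratio of 0.651, with 3 genes more covered in the fetus and 2 in the adult. Without Ebf1, the factor that specifies B cells, at chr11:44618100-45008096, it had 22.9 kb and 17.6 kb, a ratio of 1.30. Ebf1 had 2.90 kb in 6 fetal peaks and 22.0 kb in 45 adult peaks, of which 43 were adult-only and spread through the gene body. Within 1 kb of the gene's ends the fetal list covered more, and at −log10 q of 5 or more no peak was left at either age. Pax5, which holds B cell identity, had 19.1 kb in 17 fetal peaks and 16.9 kb in 29 adult peaks, an order that reversed when fetal length was scaled. Blk, a B cell kinase, had 2.45 kb and 0.555 kb, and Irf4, a factor of activated B and plasma cells, had 1.30 kb in 3 fetal peaks and none in the adult. Of the 26 genes 21 had no peak.

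Among other blood genes, no peak was called in 24 of 26 myeloid genes (92.3%), 20 of 24 erythroid, megakaryocyte and mast cell genes (83.3%) and 27 of 30 stem and progenitor identity genes (90.0%), beside 76.7% of all genes. The marked myeloid genes were S100a8 and S100a9, the calprotectin subunits, with 0.353 kb and 0.740 kb in the fetus only and no peak among the strongest 20000 of the list. Ank1, the ankyrin of the red cell membrane, had 11.7 kb in 14 fetal peaks and 4.18 kb in 6 adult peaks. All 36 housekeeping genes were without peaks at both ages.

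Markers of other cells that the fetal liver or bone marrow could hold were also scored. Peaks at either age were found in 5 of 16 hepatocyte, 4 of 14 endothelial, 4 of 14 macrophage and 9 of 16 stromal markers. The share without a peak was 68.8%, 71.4%, 71.4% and 43.8% in turn, beside 76.7% of all genes. H3K27ac peaks were called at the start of 2 of 12 hepatocyte, 4 of 8 endothelial and 1 of 9 macrophage genes at each age. For 11 stromal genes they were called at 1 start in the fetus and 2 in the adult. Over all genes with a known start the share was 48.9% in the fetus and 57.2% in the adult. Of the macrophage genes 3 were more covered in the fetus and 1 in the adult. Adgre1 had 2.30 kb in the fetus and 0.239 kb in the adult. Timd4, a receptor of tissue macrophages, was marked in the adult only, with 2 peaks over 1.12 kb. The part of other cells in the peak lists was not tested. In pooled bulk lists a smaller marked fraction of cells and a lower level per cell cannot be told apart.

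Nlrc5, which switches on MHC class I genes, and Ciita, which does so for class II, were the 2 marked genes among 27 interferon and antigen presentation genes. Both were marked in the fetus only, a share of 7.41% that is near the 7.10% of all genes. Nlrc5 held 4 fetal peaks over 2.51 kb and Ciita 2 over 1.26 kb, with no adult peak in either. H3K27ac peaks were 0 in the fetus and 6 in the adult in Nlrc5, and 0 and 3 in Ciita. The fold of these K27 peaks reached 2.94 in Nlrc5 and 2.62 in Ciita, near the fetal-only median of 2.71. Neither gene kept a peak among the strongest 20000 of the list or at −log10 q of 5 or more.

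The marked genes of the cell cycle list, 3 of 22, were Cdkn2a, Cdkn2b and Cdkn2c, inhibitors of the Ink4 family. No peak was called in 86.4% of the list, beside 76.7% of all genes. The Ink4 gene Cdkn2d was among those without a peak. Cdkn2c lay under a fetal peak over 5.94 kb of its window at chr4:109660876-109666756, with a fold of 6.04 and −log10 q of 14.3, and had no adult peak. With 20 kb on each side, 3 fetal peaks covered 13.3 kb and no adult peak was called. Cdkn2a, which encodes p16 and p19Arf and is the best known Polycomb target among them, had 16547 bp in 12 fetal and 9797 bp in 14 adult peaks. Cdkn2b had 5.41 kb and 4.21 kb. For Cdkn2a and Cdkn2b the order reversed after scaling of the fetal length.

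Imprinted genes, expressed from 1 parental allele, were marked in the fetus only in 8 of 50 (16.0% beside 7.10% of all genes), at both ages in 14 and in the adult only in 0. Their covered length was 108 kb in the fetus and 53.7 kb in the adult, a ratio of 2.00. The fetal-only genes were Dlk1, Mest, Peg3, Snrpn, Ndn, Magel2, Kcnq1 and Rasgrf1. Kcnq1, a potassium channel, had 9 fetal peaks over 6.71 kb, with 6 fetal and 18 adult H3K27ac peaks. Grb10, a growth factor receptor adaptor, had 7.26 kb and 1.08 kb. Cobl, its neighbour, had 20.7 kb and 6.80 kb, though within 1 kb of its ends the adult list covered more. Zdbf2 had 38.1 kb and 31.8 kb, an order that reversed after scaling.

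Of 38 genes of the Polycomb machinery, 31 had no peak (81.6%, beside 76.7% of all genes). Fetal peaks only were found in 4 genes (10.5%, beside 7.10% of all genes), which included Cbx2, Scml4 and Epop. Bmi1, the PRC1 subunit needed for stem cell self-renewal, had 3.96 kb in 3 fetal peaks and 0.830 kb in 1 adult peak. Cbx8, a reader of H3K27me3, had 1.70 kb and 0.300 kb. Asxl3 went the other way, with 1.737 kb in the fetus and 3.375 kb in the adult. Of the 29 genes of the list with a known start, H3K27ac was called at the start of 27 in the fetus and 29 in the adult. Over all genes with a known start these shares were 48.9% and 57.2%.

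MicroRNA loci gave a compact fetal-only example. Of 919 autosomal hairpins 20 had fetal peaks only within 1 kb (2.18%), 8 adult peaks only (0.871%) and 28 peaks at both ages (3.05%). Of the 20, 8 belonged to the miR-290 cluster at chr7:3218626-3220841, known from embryonic stem cells. Fetal peaks of 725 bp and 430 bp, with folds of 2.98 and 3.12, covered both ends of the cluster, and no adult peak lay within 20 kb. The mature RNAs printed here, from RefSeq (GRCm38.p6), have their seeds, bases 2 to 8, in capitals, because the seed defines which targets the cluster shares.
mmu-miR-290a-3p: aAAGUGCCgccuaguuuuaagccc
mmu-miR-291b-3p: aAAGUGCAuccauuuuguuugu
mmu-miR-293-3p: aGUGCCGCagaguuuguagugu
mmu-miR-294-3p: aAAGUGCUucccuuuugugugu
mmu-miR-295-3p: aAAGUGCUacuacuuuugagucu
miR-294-3p and miR-295-3p had the same seed, those of miR-290a-3p and miR-291b-3p differed from it in the last base, and miR-293-3p had another. The 8 hairpins shared 2 peaks and are 1 observation. The 3 miR-9 genes, miR-137, miR-10b and miR-125b-1 had peaks at both ages, miR-375 and miR-133b in the fetus only, and miR-208b, miR-499 and miR-138-1 in the adult only.

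H3K27ac at gene starts differed between the K27 classes of genes. A fetal H3K27ac peak lay within 1 kb of the start of 48.9% of 16457 genes and an adult one at 57.2%. The fetal H3K27ac list held 50285 autosomal peaks and the adult list 62383, so a start with H3K27ac in the adult alone was the more frequent case overall. Among 1105 genes with fetal K27 peaks only, 21.4% had H3K27ac at the start in the adult and not in the fetus (Wilson interval 19.04% to 23.87%). The same share was 7.92% of the 12816 genes without K27 peaks (7.46% to 8.40%), 7.84% of genes marked at both ages (6.80% to 9.03%) and 8.22% of the 304 adult-only genes (5.63% to 11.9%). H3K27ac in the fetus and not in the adult was seen at 3.29% of adult-only genes (1.80% to 5.95%, 10 genes), against 0.453% of genes without K27 peaks (0.350% to 0.585%) and 0.181% of fetal-only genes (0.0496% to 0.658%, 2 genes). These shares are limited by how many starts can differ. Of the starts without fetal H3K27ac, 27.5% of fetal-only genes (236 of 859, 24.6% to 30.6%) had adult H3K27ac, against 19.4% of genes without K27 peaks (1015 of 5229, 18.4% to 20.5%), 8.55% of genes marked at both ages and 9.19% of adult-only genes. Of the starts without adult H3K27ac, 3.89% of adult-only genes (2.13% to 7.01%) had fetal H3K27ac, against 1.36% of genes without K27 peaks (1.05% to 1.75%). These intervals cover counting error only. Genes of a class can share peaks and loci and are not independent, so the intervals are too narrow to compare the classes. No test was run.

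**Figure D5:**
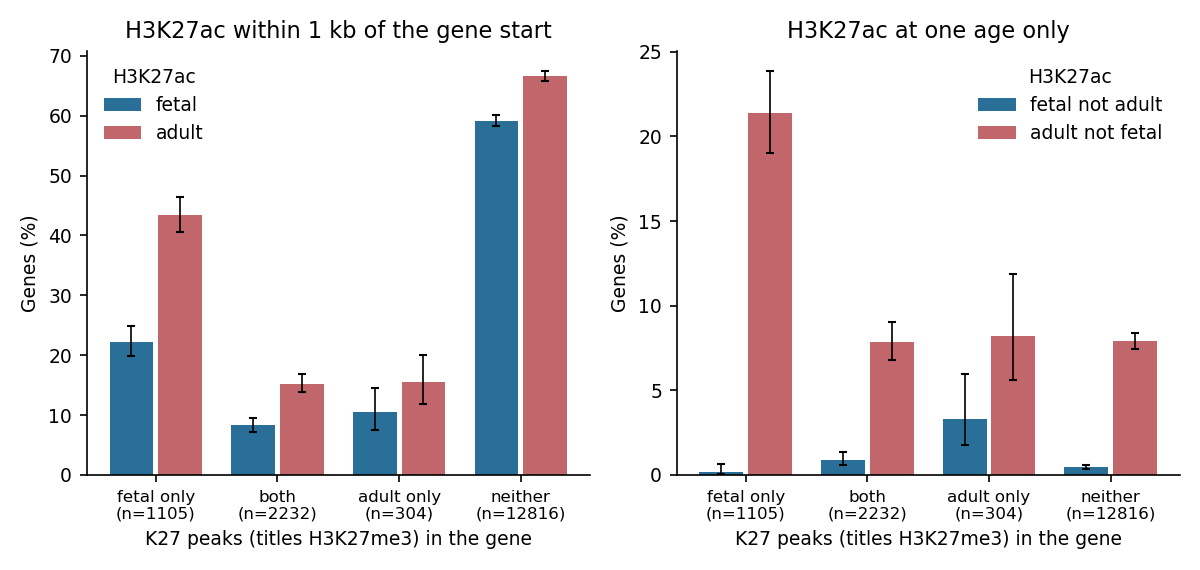
Share of genes (y axis, percent) with an H3K27ac peak within 1 kb of a start in fetal or adult HPC (left) and with H3K27ac at 1 age only (right), by K27 class of the gene (x axis, n genes); bars are 95% Wilson intervals. H3K27ac in the adult alone stands at 21.4% in genes with fetal K27 peaks only and between 7.84% and 8.22% in the other classes.

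At the level of single peaks, overlap with H3K27ac was rare in every class. Fetal-only peaks overlapped fetal H3K27ac in 0.438% and adult H3K27ac in 0.492% of cases. Adult-only peaks overlapped adult H3K27ac in 0.0172% (4 peaks) and fetal H3K27ac in 0.640% (149 peaks). H3K4me1, a mark of enhancers and promoter flanks, overlapped 6.44% of fetal-only peaks in the fetus and 6.54% in the adult. For adult-only peaks it overlapped 2.08% in the fetus and 1.40% in the adult. Shared peaks overlapped H3K4me1 more often, with 9.79% and 10.1% of shared fetal peaks and 7.81% and 6.44% of shared adult peaks at the fetal and adult stage. Shared peaks were also wider than age-only peaks, and the part of width in these overlaps was not tested.

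The strongest age-only peaks lay partly outside genes. The highest fetal-only peak, at chr13:92958178-92961532, had a fold of 6.49 and was 79180 bp from Cmya5, and the next, with 6.45, was 863 bp from H2-T3, a class I gene with close paralogues, where mapping is uncertain. The third was in Apbb2 with 6.17. The highest adult-only peak, at chr7:138732983-138733924, had a fold of 6.40 and no coding gene within 100 kb. The adult-only peak of rank 3, with 5.51, was 9639 bp from Adrb1, a beta adrenergic receptor. Shared peaks went higher, to 8.86 in the fetal list in Gpr176 and to 8.97 in the adult list, 3641 bp from Fcgr3.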

How the data were processed

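ChIPmentation libraries of HPC were used as pooled peak lists, 1 per age and mark. Per the submitters' processing notes, the tools were Novoalign and MACS2 and the build mm10 (GRCm38). Their versions, the calling threshold, the filter on the lists and the use of the inputs were not given in the sources used here. Each deposited peak has a ratio, its fold over background, with a −log10 p and a −log10 q from the authors' peak caller. They served to describe, rank or filter the peaks of a list. Counts past a threshold are given for both lists, but depend on each list.

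Overlaps, covered lengths and gene classes were computed with Python 3.11.15, numpy 2.4.6 and pandas 2.3.3, and the interval code was tested on simulated intervals. Autosomes only were used. Genes came from the RefSeq table of GRCm38.p6, which has no strand or exons. Starts and strands of 16457 genes came from its promoter table. Of 627 distinct gene names in 21 lists, 609 matched. The members, the gene lists and the alternatives were chosen with earlier results of these data known.

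Genes named are the 8 with most covered length in 1 list and none in the other, up to 3 members per list and direction that differed by 500 bp or more, and the genes at the 3 strongest peaks of each class. Other genes were added after their values were seen, such as Igf2bp2, Igf2bp3 and Hmga2. Not every gene under the rule is printed. Shares carry 95% Wilson intervals and their difference a Newcombe interval. The alternatives were other overlap rules, gene windows, peak thresholds, merging of peaks and scaling of the fetal length. With 1 pooled list per age no test was run and no p-value of a comparison is given.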

Additional observations from a re-analysis of the deposited data

Results flagged for a closer look

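Chromosome X was left out of the comparison, and the lists differed there most. The adult list held 6736 peaks on chromosome X, 12.4% of all its peaks, and the fetal list 743 peaks, 1.37% of its own. The difference was not tested, and the sex of the mice is not given in the labels.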

How the results depend on the processing

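The fetal-only share stayed above the adult-only share under all 10 alternatives, by 6.64 to 24.4 percentage points. The fetal-only share, adult-only share and difference were 74.2%, 53.7% and 20.5 points when a peak counted as age-only with under 50% covered by the other list. With no other peak within 1 kb the shares were 51.3% and 38.0%, and within 5 kb they were 36.6% and 21.4% (15.2 points). For the strongest 20000 peaks against the full other list they were 41.3%, 33.4% and 7.85 points, and against each other 59.6%, 53.0% and 6.64 points. At −log10 q of 5 or more they were 22.7%, 5.61% and 17.1 points, and at 2 or more 48.7%, 24.3% and 24.4 points. At or above the median fold of each list they were 62.3%, 51.5% and 10.8 points. Merging peaks within 1 kb gave 60.7%, 50.2% and 10.6 points. With all chromosomes the adult-only share was 54.4% and the difference 7.05 points.

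Genes with peaks at both ages numbered 1513 within 1 kb of either gene end, 1954 with the strongest 20000 peaks and 188 at −log10 q of 5 or more, where 13 genes had adult peaks only and 1662 fetal peaks only. Within 1 kb of the starts of 16457 genes, 861 had fetal peaks only, 207 adult peaks only and 873 both. Overlap with adult H3K27ac of fetal-only peaks was 2.30% within 1 kb, 0.121% by summit and 0.814% among the strongest 20000, and with adult H3K4me1 12.0%, 4.03% and 11.4%. Overlap with fetal H3K27ac of adult-only peaks was 1.14%, 0.455% and 0.802% in the same order, and with fetal H3K4me1 3.88%, 1.60% and 2.79%.

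For 57 genes the adult minus fetal covered length was recomputed. Within 1 kb of the gene ends the sign reversed for Cobl (385 bp), Apob (40 bp), Lin28b (-216 bp), Ncam1 (-82 bp), Ebf1 (-353 bp) and Bmp6 (-135 bp). It reversed for Bmp6 with the strongest 20000 peaks (-298 bp), and at −log10 q of 5 or more for Ncam1 (-3066 bp), Bmp6 (-4398 bp) and Twist2 (-1587 bp). With the fetal length scaled to the adult total it reversed for Cdkn2a (173 bp), Cdkn2b (1065 bp), Zdbf2 (9626 bp) and Pax5 (5720 bp). At −log10 q of 5 or more no difference was left for 23 of the 57 genes: Lin28b, Igf2bp1, Igf2bp2, Igf2bp3, Ebf1, Bmp5, Fgf18, Timd4, Spata17, Fbxo15, Elavl4, Slc24a3, Zkscan2, Hmgcll1, Plxna2, Nlrc5, Ciita, S100a8, S100a9, Irf4, Apob, Cbx8 and Rasgrf1. None was left with the strongest 20000 peaks for 7: Spata17, Igf2bp3, Nlrc5, Ciita, S100a8, S100a9 and Rasgrf1. The cause was not tested. The settings at −log10 q of 2, at gene starts, by summit and with scaling, the lists without 1 gene and the starts without H3K27ac at the other age were chosen after seeing the data. Leaving out a replicate could not be done, because the lists are pooled. No paired analysis was possible because each age has 1 pooled list. Read depth is unknown, and its part was not tested.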

Other observations

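Some gene families outside the lists had several members marked at 1 age only. Those named here were picked, after their values were seen, from all families of 10 or more genes with a shared name root. Over all genes 7.10% held fetal peaks only and 1.85% adult peaks only. Of 10 Gbp genes, the interferon-induced guanylate binding proteins, 5 had fetal peaks only and none had adult peaks. A stretch on chromosome 5 that spans Gbp9, Gbp4, Gbp10 and Gbp6 held 62 fetal-only peaks over 59.1 kb. The windows of the 10 Gbp genes held 28 fetal-only peaks, so many peaks of the stretch lay outside these windows. In this stretch the H3K27ac lists had 2 fetal and 13 adult peaks. Peaks in the fetus only were also found in 5 of 13 Ifna genes and 9 of 21 Lce genes of the epidermal cornified envelope, with no other member marked, and in 8 of 22 Ugt glucuronosyltransferases, with 2 marked at both ages. Peaks in the adult only were found in 7 of 24 Fbxw genes, with 2 at both ages and 0 in the fetus only. Of 12 Apol genes 4 were adult-only, 1 fetal-only and 2 marked at both ages, and of 53 Krt keratins 8 were adult-only, 2 fetal-only and 25 marked at both ages. Members of these families are near-identical neighbours, so they are uncertain as separate genes and no test was run on them.

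Age-only peaks were joined into runs where gaps were up to 20 kb. Of the 20 runs with most covered length, 7 held no coding gene at each age. The fetal run with most covered length, on chromosome 1, held 66 peaks over 65.1 kb with no coding gene within 100 kb. A run of 61 peaks over 51.4 kb on chromosome 8 lay 18.9 kb from Irs2, an adaptor of the insulin receptor, and held 2 fetal and 16 adult H3K27ac peaks. Adult runs were shorter. The most covered was in Ncam1 with 25 peaks over 12.0 kb, then came Adamtsl1 with 11.8 kb, Ebf1 with 10.2 kb and Npas3 with 10.1 kb. A run of 22 adult-only peaks over 8.53 kb lay among Ighv segments of the immunoglobulin heavy chain locus, where near-identical segments make mapping uncertain. Between Dlk1 and Dio3, an imprinted region with 58 microRNA hairpins in the table, 27 fetal and 49 adult peaks were called, and 0 hairpins had a peak within 1 kb.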
